A study of Homo sapiens with 6 samples.

Results

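The 45 cytosolic and ER (endoplasmic reticulum) chaperone genes examined were chosen by name, as heat shock genes with their co-chaperones, CCT subunits, prefoldin subunits and ER chaperones of the unfolded protein response. Of these, 44 have a row among the 19330 genes of the count table, and all 44 passed the filter on low counts. HSPA1B was not analysed here. They comprise 17 cytosolic HSP and co-chaperone genes, the 8 CCT subunits, 5 prefoldin subunits and 14 ER genes.

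Molecular chaperones bind proteins that are not yet folded, or no longer folded, and keep them from aggregating. In the cytosol, HSP70 proteins take up new chains with the help of J-domain co-chaperones and nucleotide exchange factors, HSP90 acts later on selected clients, and prefoldin hands actin and tubulin to the ring-shaped CCT chaperonin. The ER has its own HSP70 (BiP), HSP90 (GRP94), lectin chaperones and disulfide isomerases. HSF1 induces the cytosolic genes under heat or proteotoxic stress, and ATF6 and XBP1 induce the ER genes in the unfolded protein response.

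RNA was sequenced from K562 cells, a human cell line of chronic myelogenous leukemia, at day 10 after infection with lentivirus (pLentiCRISPRv2) carrying Cas9 and an sgRNA. There were 3 libraries with control sgRNAs (sgCtrl) and 3 with sgRNAs against N6AMT1 (sgN6AMT1), a methyltransferase that modifies the translation release factor eRF1, each from its own transduction. Both conditions therefore went through Cas9 delivery and puromycin selection. The control sgRNAs are named in the labels as OR11A1 and OR2M49, whereas the paper gives OR2M4 for the second and also names EGFP. The sgRNA of each library is not given in the sources used here, and no isolation of single clones is described.

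The sgCtrl libraries held 742470 to 866894 counts and the sgN6AMT1 libraries 959319 to 5526904, with replicates 2 and 3 of sgN6AMT1 the deeper ones. N6AMT1 itself received 5 to 9 counts in sgCtrl and 0, 18 and 16 counts in sgN6AMT1 replicates 1 to 3, or 5.77 to 10.6 cpm and 0 to 4.11 cpm, where cpm are counts scaled by library size with the TMM factors of edgeR. TFRC, the transferrin receptor and abundant in K562 cells, stood at 921 to 1237 cpm, whereas the lymphoid genes CD3E and MS4A1 received at most 2 counts. The embryonic globin HBE1 lay at 944 to 1312 cpm in sgCtrl and 1811 to 2470 cpm in sgN6AMT1. mt-DNA-encoded genes took 3.21 to 5.26% of the counts in sgCtrl and 0.461 to 1.92% in sgN6AMT1. The part of the HBE1 difference in the values below was not tested.

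To see whether the promoters of the chaperone genes carry the sequences through which these responses are known to act, a window from 250 bases before to 50 bases after the start of transcription (RefSeq, GRCh38.p14) was searched on both strands. A window was found for 40 of the 45 genes, and only the first given for each was searched. The windows of all genes, used for comparison, may include several per gene. Heat shock and unfolded-protein-response genes were put on the list by name. Shares above those of all windows, here and for the heat shock element below, therefore follow from that choice and were not tested. The ER stress response element, CCAAT and CCACG with 9 bases between them, was present in the windows of HSPA5, HSP90B1, CALR, CANX and XBP1, or 12.5% of the members' windows, against 0.0769% of 35116 windows of all genes. The matches are shown with 6 flanking bases on each side and the element in capitals, 5′ to 3′ on the strand of the gene. On the strand opposite to its spelling the element reads from CGTGG to ATTGG. Counted from the start of transcription, the elements begin at positions -225 to -52.
HSPA5, chr9:125241385-125241415, minus strand: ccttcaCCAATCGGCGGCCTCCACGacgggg
HSP90B1, chr12:103930210-103930240, plus strand: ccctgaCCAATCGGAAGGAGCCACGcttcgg
HSP90B1, chr12:103930315-103930345, plus strand: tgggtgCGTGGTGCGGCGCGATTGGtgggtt
CALR, chr19:12938378-12938408, plus strand: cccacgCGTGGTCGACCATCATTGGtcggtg
CANX, chr5:179698772-179698802, plus strand: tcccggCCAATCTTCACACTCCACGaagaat
XBP1, chr22:28800597-28800627, minus strand: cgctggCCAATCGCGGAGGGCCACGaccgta

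The heat shock element, through which HSF1 acts, is built from GAA units in alternating orientation. With 3 units (GAA, TTC and GAA, or TTC, GAA and TTC, with 2 bases between neighbours) it was present in the windows of HSPA8, DNAJA1 and DNAJB6, or 7.5% of the members' windows against 0.49% of all windows. The same layout is used, with the units and the bases between them in capitals.
HSPA8, chr11:123062348-123062372, minus strand: gagcttGAAAGTTCCAGAAcgctgc
HSPA8, chr11:123062173-123062197, minus strand: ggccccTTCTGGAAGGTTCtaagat
DNAJA1, chr9:33025270-33025294, plus strand: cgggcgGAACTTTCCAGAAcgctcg
DNAJB6, chr7:157336867-157336891, plus strand: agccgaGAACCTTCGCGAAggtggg

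The shorter spelling with 2 units (GAA and TTC, or TTC and GAA, 2 bases apart), which also occurs inside the longer one, was present in 22.5% of the members' windows and 13.5% of all windows. The window of HSPA1A, the member whose transcript passed the test below, held 1 such match and none of the longer spelling. It is shown whole, with that match in capitals.
HSPA1A, chr6:31815293-31815592, plus strand: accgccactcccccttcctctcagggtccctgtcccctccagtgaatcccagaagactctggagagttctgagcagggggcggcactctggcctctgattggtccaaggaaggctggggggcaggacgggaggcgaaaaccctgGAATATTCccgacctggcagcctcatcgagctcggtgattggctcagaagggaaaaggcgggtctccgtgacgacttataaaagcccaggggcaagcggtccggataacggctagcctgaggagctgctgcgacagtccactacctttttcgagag

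A match describes letters in this window only, and binding was not measured in these libraries. Of the 5 ER genes with the element, XBP1 and CALR had log2 fold changes (sgN6AMT1 against sgCtrl) of 0.27 and -0.01, while HSPA5, HSP90B1 and CANX had -0.50, -0.36 and -0.33. Of the 3 cytosolic genes with the longer heat shock element, HSPA8 had 0.09, DNAJB6 -0.13 and DNAJA1 -0.40. None of these 8 genes passed the test described next (edgeR adjusted p between 0.105 and 0.981), and the estimates of CALR, HSPA8 and DNAJB6 changed sign in some alternatives.

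The comparison of sgN6AMT1 with sgCtrl asks whether loss of N6AMT1 was accompanied by a change in transcripts of the folding machinery. HSPA1A, which encodes the stress-inducible HSP70, rose in sgN6AMT1, and it was the only one of the 44 genes with an adjusted p under 0.05 in edgeR's quasi-likelihood test over 8324 genes. Among all genes tested, 9.85% passed that threshold, 5.09% higher and 4.76% lower. At an unadjusted p under 0.05 there were 11 of the 44 genes, against 26.2% of all genes. The 3 values of one condition lay apart from those of the other for 5 members that were higher and 8 that were lower in sgN6AMT1, where 29.2% of all genes did so, 15.1% higher and 14.1% lower. DESeq2 also called HSPA1A alone among the members, against 6.7% of the genes it tested. These shares are close to or below those of all genes. In these bulk libraries a smaller number of expressing cells and less RNA per cell cannot be told apart.

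Across the 44 genes, 18 estimates were positive and 26 negative, where 50.8% of all genes were positive. The median was -0.10 on the log2 scale, against 0.01 over all genes tested, and -0.010 without sgN6AMT1 replicate 3. The estimates ran from -0.65 for PFDN4 to 0.81 for HSPA1A. For the 43 genes that did not pass, the 95% interval of the log2 fold change lay between -1 and 1 for 39 and between -0.5 and 0.5 for 16, so that a change of that smaller size is still possible for most of them.

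**Figure D1:**
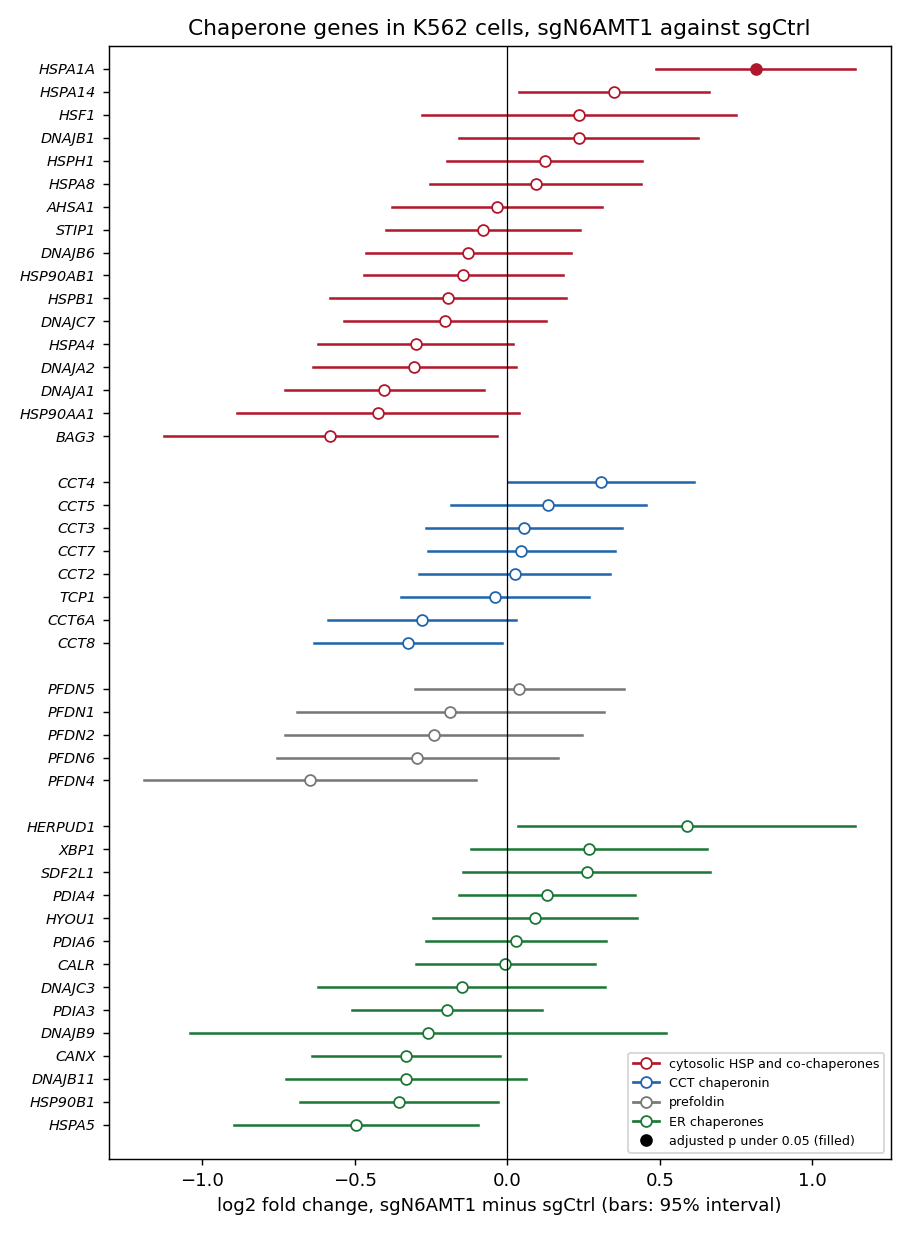
Log2 fold change of each chaperone gene, sgN6AMT1 minus sgCtrl (horizontal axis), with its 95% interval from the edgeR fit over 6 libraries, grouped by role; a filled point marks an adjusted p under 0.05. The single filled point is HSPA1A at 0.81, and the others lie between -0.65 and 0.59.

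Together the 44 genes took 2.52 ± 0.08% of all counts (mean and SD, n = 3) in sgCtrl and 2.40 ± 0.10% (n = 3) in sgN6AMT1. In single libraries this share was 2.44 to 2.60% in sgCtrl, and 2.45, 2.45 and 2.28% in sgN6AMT1 replicates 1 to 3. The 95% Wilson interval was 2.27 to 2.30% in sgN6AMT1 replicate 3, below those of the other libraries, and covers counting error only. The members' median log2 value relative to the mean of sgCtrl was -0.02, 0.01 and -0.20 in sgN6AMT1 replicates 1 to 3, against -0.06 to 0.04 in sgCtrl. Replicate 3 of sgN6AMT1 thus held the lowest values in both measures, while replicates 1 and 2 lay within the range of the sgCtrl libraries. With mt-DNA-encoded genes left out of the total, the shares were 2.58 to 2.72% in sgCtrl and 2.50, 2.47 and 2.29% in sgN6AMT1, so that the conditions no longer overlapped.

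**Figure D2:**
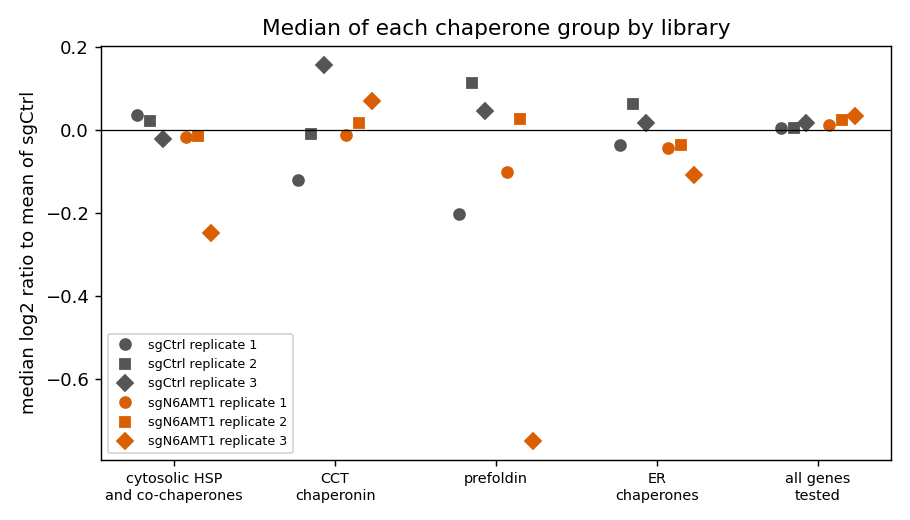
Median log2 ratio to the mean of sgCtrl (vertical axis) over the genes of each group and over all genes tested, with 1 point per library. In sgN6AMT1 replicate 3 (diamond) prefoldin lies at -0.75 and the cytosolic HSP group at -0.25, while all genes tested lie between 0.00 and 0.03 in the 6 libraries.

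HSF1, the transcription factor of the heat shock response, was measured at 125, 90.0 and 43.6 cpm in the 3 sgCtrl libraries in order of replicate and at 107, 97.6 and 98.7 cpm in sgN6AMT1. The sgCtrl libraries spread on both sides of the sgN6AMT1 libraries. Its log2 fold change was 0.24 (standard error, SE, 0.25, edgeR adjusted p = 0.592), and 0.06 with the GC and length trend removed from each library.

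HSPA1A spans positions 31815543 to 31817946 of chromosome 6 in GRCh38, plus strand (GENCODE version 44, as for all gene positions). Its raw counts were 381, 401 and 350 in sgCtrl and 662, 4405 and 3624 in sgN6AMT1. Normalized, these were 512, 463 and 413 cpm in sgCtrl and 698, 804 and 932 cpm in sgN6AMT1. All sgN6AMT1 libraries lay above all sgCtrl libraries, including replicate 1, whose depth was nearest to that of the controls. The means were 462 ± 49.7 and 811 ± 117 cpm (SD, n = 3 each), a 1.76-fold increase (log2 fold change 0.81, SE 0.16, 95% interval 0.49 to 1.14, edgeR adjusted p = 0.00389).

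The call for HSPA1A was kept in 16 of 17 alternative fits, with log2 fold changes from 0.65 to 0.91 in those 16. It was lost without sgN6AMT1 replicates 2 and 3 together (0.61, edgeR adjusted p = 0.146), a fit with 1 sgN6AMT1 library. HSPA1A and HSPA1B share 74.6% of the 60-base windows of the HSPA1A transcript, and how reads that map to both were counted is not given in the sources used here, so that the count may include reads of HSPA1B or lack reads of HSPA1A that map to both. At 59.8% GC the transcript is in the fifth of genes with the highest GC content, whose median log2 fold change was 0.18, and with the GC and length trend removed from each library its log2 fold change was 0.65 (edgeR adjusted p = 0.00285).

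HSPA8, the constitutive HSP70 of the cytosol, was the most abundant member. It stood at 3855, 4326 and 4653 cpm in sgCtrl and at 4449, 4070 and 5164 cpm in sgN6AMT1, so that the conditions overlapped (log2 fold change 0.09, SE 0.16, edgeR adjusted p = 0.773). The ratio of HSPA1A to HSPA8, each per kb of transcript, was 0.125, 0.101 and 0.0837 in sgCtrl and 0.148, 0.186 and 0.170 in sgN6AMT1. As counted, HSPA1A was below HSPA8 in each library, with the limit that reads shared with HSPA1B may be missing from it.

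BAG3, a stress-inducible exchange factor that links HSP70 to autophagy, had the lowest log2 fold change of the cytosolic HSP and co-chaperone genes. Its level was 43.0, 34.6 and 28.3 cpm in sgCtrl and 23.2, 24.6 and 22.4 cpm in sgN6AMT1. Every sgN6AMT1 library lay below every sgCtrl library, at a log2 fold change of -0.58 (SE 0.26, 95% interval -1.13 to -0.03, edgeR adjusted p = 0.163), which did not pass. BAG3 rests on 22 to 32 counts in the 4 shallower libraries.

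Of 4 other listed genes that HSF1 is known to induce, none passed the test. DNAJB1, the HSP40 partner of HSP70, had a log2 fold change of 0.23 (95% interval -0.16 to 0.62), and HSPH1, an HSP110-type exchange factor, 0.12 (-0.20 to 0.44). HSPB1, the small heat shock protein HSP27, had -0.19 (-0.58 to 0.19). The inducible HSP90 gene HSP90AA1 had -0.42 (-0.89 to 0.04). Unlike HSPA1A, these genes overlapped between the conditions. HSPA6, a strictly heat-inducible HSP70 outside the list and named after its values were seen, did not pass the filter on low counts. Its raw counts were 5, 3 and 2 in sgCtrl and 16, 65 and 39 in sgN6AMT1, or 2.36 to 6.72 cpm and 10.0 to 16.9 cpm, without overlap, and without the filter its log2 fold change was 1.56 (SE 0.53, edgeR adjusted p = 0.0408).

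The lower values of HSP90AA1 were found in replicate 3 of both conditions. It stood at 1748, 1965 and 1182 cpm in sgCtrl and at 1532, 1345 and 777 cpm in sgN6AMT1, and without sgN6AMT1 replicate 3 its log2 fold change was -0.18 in place of -0.42. Its constitutive partner HSP90AB1 was measured at 2739, 2756 and 2533 cpm in sgCtrl and 2369, 2714 and 2180 cpm in sgN6AMT1 (log2 fold change -0.14, SE 0.16, edgeR adjusted p = 0.604). Per kb, HSP90AA1 was 0.369 to 0.564 times HSP90AB1 in sgCtrl and 0.282 to 0.512 times in sgN6AMT1, and these ranges overlap.

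Among the remaining cytosolic genes, HSPA14, an HSP70 that acts on chains at the ribosome, lay higher in each sgN6AMT1 library than in each sgCtrl library, with 158 to 166 cpm in sgCtrl and 193 to 228 cpm in sgN6AMT1. Its log2 fold change was 0.35 (SE 0.15, edgeR adjusted p = 0.140), and 15.3% of its 60-base windows also occur in transcripts of MSANTD7. The J-domain genes DNAJA1 and DNAJA2 lay lower without overlap, at 348 to 391 and 140 to 164 cpm in sgCtrl and 225 to 314 and 116 to 138 cpm in sgN6AMT1. Their log2 fold changes were -0.40 and -0.31 (edgeR adjusted p = 0.107 and 0.233). The other 5 genes, HSPA4, DNAJB6, DNAJC7, STIP1 and AHSA1, had log2 fold changes between -0.30 and -0.03 with overlapping conditions.

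**Figure D3:**
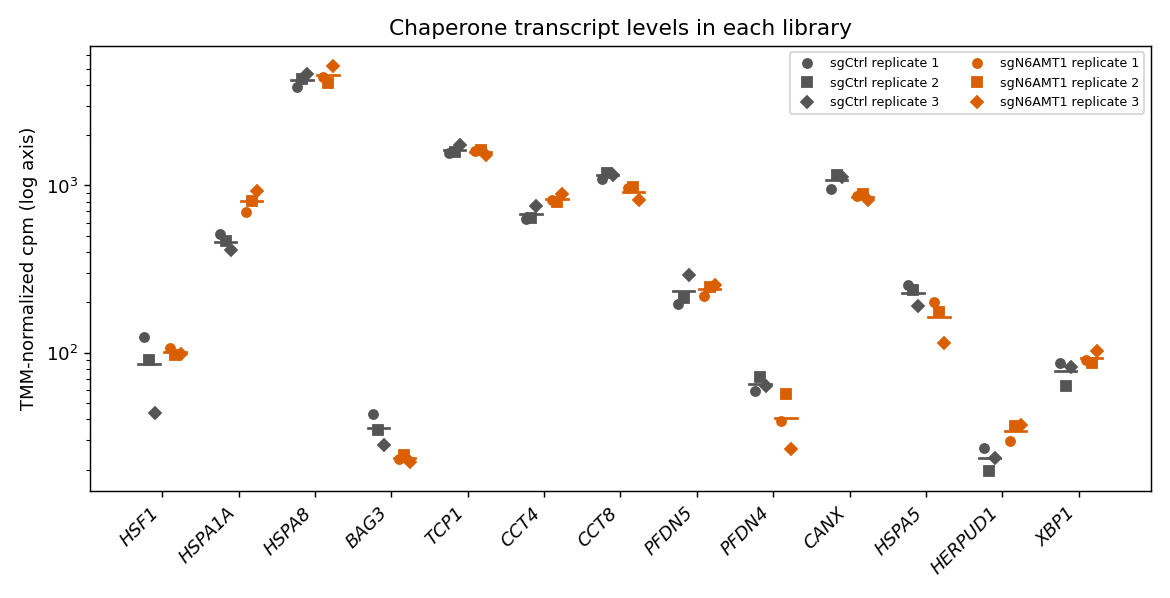
TMM-normalized cpm (log axis) of 13 chaperone genes in each library, with a line at the mean of each condition. HSPA1A, CCT4 and HERPUD1 are separated upward and BAG3, CCT8, PFDN4 and CANX downward in sgN6AMT1, while HSF1 ranges from 43.6 to 125 cpm within sgCtrl. Several of the genes were shown because they had the highest or lowest log2 fold change of their group, so that their separation partly follows from that choice. Among all genes tested, the conditions did not overlap for 29.2%.

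The CCT chaperonin is a double ring in which each subunit occupies its own place, so that the protein subunits are needed in equal parts. None of the 8 subunit transcripts passed the test with edgeR or DESeq2. At an unadjusted edgeR p under 0.05 there were 2 of the 8, against 26.2% of all genes tested. Their log2 fold changes ran from -0.33 to 0.31 with a median of 0.03, 5 positive and 3 negative, and their 95% intervals together spanned -0.64 to 0.61. The 8 genes took 0.785 ± 0.060% of the counts (mean and SD, n = 3) in sgCtrl and 0.766 ± 0.011% (n = 3) in sgN6AMT1.

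TCP1, the founding subunit (CCT1) and the most abundant of the transcripts, was measured at 1553, 1590 and 1747 cpm in sgCtrl and 1611, 1626 and 1518 cpm in sgN6AMT1 (log2 fold change -0.04, SE 0.15, edgeR adjusted p = 0.898). CCT4, on chromosome 2 from 61868085 to 61888671, stood at 634, 636 and 753 cpm in sgCtrl and 816, 796 and 891 cpm in sgN6AMT1. All of its sgN6AMT1 values lay above the sgCtrl values, with a log2 fold change of 0.31 (SE 0.15, edgeR adjusted p = 0.189). CCT8, on chromosome 21 from 29055805 to 29073797, lay on the other side, at 1099, 1194 and 1162 cpm in sgCtrl and 964, 979 and 814 cpm in sgN6AMT1, with a log2 fold change of -0.33 (SE 0.15, edgeR adjusted p = 0.166).

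CCT6A was also lower without overlap, at 777 to 962 cpm in sgCtrl and 668 to 744 cpm in sgN6AMT1 (log2 fold change -0.28, edgeR adjusted p = 0.238). CCT2, CCT3, CCT5 and CCT7 overlapped between the conditions, with log2 fold changes of 0.02 to 0.13. Divided by transcript length, the subunits were not present in equal parts in either condition. In sgCtrl they ranged from 284 cpm per kb for CCT4 to 693 for TCP1, and in sgN6AMT1 from 278 for CCT6A to 674 for TCP1. As a part of the summed CCT level per kb, CCT4 made up 7.67 to 8.22% in sgCtrl and 9.69 to 10.8% in sgN6AMT1, while CCT8 made up 16.2 to 18.5% and 12.6 to 15.3%. Each of these pairs of ranges is apart, although neither gene passed the reported test. Both genes were picked as the highest and lowest log2 fold change of the group and already lay apart in cpm. The parts restate those values on another scale and are no separate result.

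**Figure D4:**
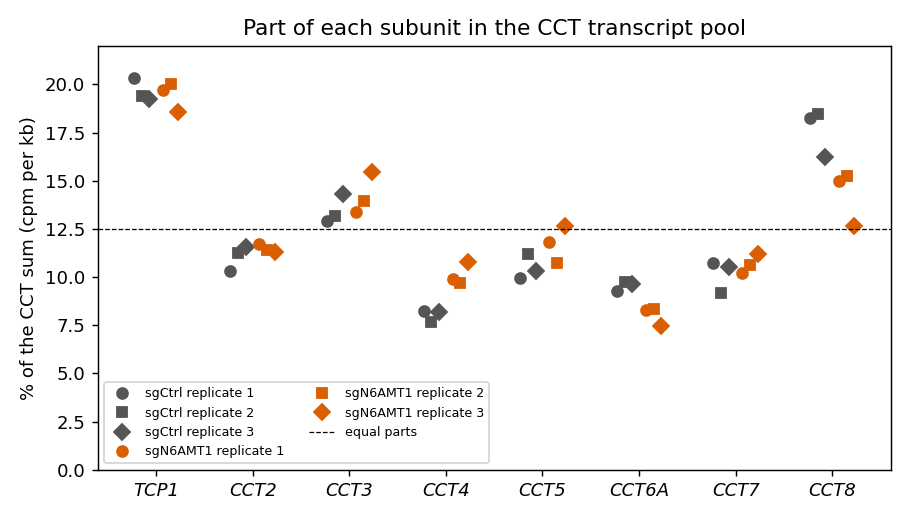
Part of each CCT subunit in the summed CCT transcript level (percent of cpm per kb, vertical axis) in each of the 6 libraries, with a dashed line at equal parts (12.5%). TCP1 lies at 18.6 to 20.3%, and CCT4 is higher and CCT6A and CCT8 are lower in the 3 sgN6AMT1 libraries than in the 3 sgCtrl libraries. These genes also lay apart in cpm, and none of them passed the reported test.

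Prefoldin is a hexamer that binds nascent actin and tubulin and delivers them to CCT. None of the 5 listed subunits passed the test with edgeR or DESeq2. At an unadjusted edgeR p under 0.05 there was 1 of the 5, against 26.2% of all genes tested. The median log2 fold change of these 5 was -0.24, with 4 negative values and 1 positive. The remaining subunit, VBP1 (prefoldin 3), is not among the listed members and had a positive estimate (61.8 to 156 cpm in sgCtrl, 133 to 156 cpm in sgN6AMT1, log2 fold change 0.41, SE 0.23, edgeR adjusted p = 0.256). PFDN4, on chromosome 20 from 54208087 to 54228052, had the lowest log2 fold change of all 44 genes, at 59.1, 71.5 and 63.7 cpm in sgCtrl and 39.0, 56.9 and 26.5 cpm in sgN6AMT1. The conditions lay apart, and the sgN6AMT1 libraries themselves spread from 26.5 to 56.9 cpm (log2 fold change -0.65, SE 0.26, 95% interval -1.19 to -0.10, edgeR adjusted p = 0.120).

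Leaving out sgN6AMT1 replicate 3 gave PFDN4 a log2 fold change of -0.36 (edgeR adjusted p = 0.381), and leaving out replicate 2 gave -1.05 (edgeR adjusted p = 0.0286), which passed. PFDN4 passed in 2 of 17 alternatives, the other being the fit with replicate number as a block (-0.72, edgeR adjusted p = 0.0336). PFDN5, the most abundant prefoldin transcript, was measured at 196, 213 and 291 cpm in sgCtrl and 217, 246 and 255 cpm in sgN6AMT1 (log2 fold change 0.04, SE 0.16, edgeR adjusted p = 0.911). All 60-base windows of its transcript are shared with another annotated gene that overlaps it. PFDN1, PFDN2 and PFDN6 had log2 fold changes of -0.19, -0.24 and -0.30, with overlapping conditions. In each of these 3 genes the lowest of the 6 libraries was sgN6AMT1 replicate 3, at 36.0, 38.3 and 55.0 cpm. The median of the group in that library, relative to the mean of sgCtrl, was -0.75 on the log2 scale, against -0.10 and 0.03 in sgN6AMT1 replicates 1 and 2 and -0.20 to 0.11 in sgCtrl.

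In the ER group, 6 of 14 estimates were positive and 8 negative, and their median was -0.08 on the log2 scale. None passed the test with edgeR or DESeq2. At an unadjusted edgeR p under 0.05 there were 4 of the 14, against 26.2% of all genes tested. These genes took 0.482 ± 0.020% of the counts (mean and SD, n = 3) in sgCtrl and 0.428 ± 0.035% (n = 3) in sgN6AMT1. In single libraries the share was 0.464 to 0.504% in sgCtrl and 0.438, 0.457 and 0.389% in sgN6AMT1, so that the 2 conditions did not overlap. With mt-DNA-encoded genes left out of the total, the means were 0.504 and 0.432%.

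HSPA5 encodes BiP, which holds the stress sensors of the ER inactive until unfolded proteins draw it away, and lies on chromosome 9 from 125234853 to 125241382. It stood at 254, 238 and 191 cpm in sgCtrl and 201, 175 and 115 cpm in sgN6AMT1, and sgN6AMT1 replicate 1 exceeded sgCtrl replicate 3. Its log2 fold change of -0.50 (SE 0.19, 95% interval -0.90 to -0.10, edgeR adjusted p = 0.105) did not pass. HSPA5 passed in 4 of 17 alternatives. It did so without sgN6AMT1 replicate 1 (-0.65, edgeR adjusted p = 0.0353) and without a filter on low counts (-0.50, edgeR adjusted p = 0.0411). It also passed with replicate number as a block (-0.51, edgeR adjusted p = 0.02425). The last was the GC content and length correction with that block (-0.47, edgeR adjusted p = 0.00798). With the block 14.4% of all genes were called, and 16.9% with both. Without sgN6AMT1 replicate 3 the log2 fold change was -0.29 (edgeR adjusted p = 0.309).

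The ER counterpart of HSP90, HSP90B1 (GRP94), lay lower without overlap, at 868, 939 and 910 cpm in sgCtrl and 761, 788 and 576 cpm in sgN6AMT1 (log2 fold change -0.36, SE 0.15, edgeR adjusted p = 0.149). CANX, the membrane-bound lectin chaperone and the ER transcript with the highest cpm, also lay lower. It stood at 950, 1148 and 1122 cpm in sgCtrl and 863, 884 and 814 cpm in sgN6AMT1 (log2 fold change -0.33, SE 0.15, edgeR adjusted p = 0.158). With the GC and length trend removed from each library, the log2 fold change of CANX was -0.18 (edgeR adjusted p = 0.344). CALR, the soluble relative of CANX, overlapped fully, at 673 to 753 cpm and 703 to 730 cpm, with a log2 fold change of -0.01 (95% interval -0.30 to 0.29).

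The disulfide isomerases PDIA3, PDIA4 and PDIA6 had log2 fold changes of -0.20, 0.13 and 0.03. PDIA4 was slightly higher in each sgN6AMT1 library, at 326 to 350 cpm against 293 to 323 cpm in sgCtrl. Of the ER J-domain genes, DNAJB11 had -0.33, DNAJB9 -0.26 and DNAJC3 -0.15, all with overlap. DNAJB9 rests on 8 to 17 counts in the 4 shallower libraries, and its 95% interval ran from -1.04 to 0.52.

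XBP1, whose mRNA is spliced by IRE1 to give the active factor, was measured at 87.3, 63.5 and 82.5 cpm in sgCtrl and 90.6, 87.1 and 102 cpm in sgN6AMT1 (log2 fold change 0.27, SE 0.19, edgeR adjusted p = 0.381). Counts per gene do not separate its spliced and unspliced forms. HERPUD1, a component of ER-associated degradation induced in ER stress, had the highest log2 fold change of the ER group. It lies on chromosome 16 from 56932142 to 56944864 and stood at 26.9, 19.6 and 23.6 cpm in sgCtrl and 29.5, 36.5 and 36.8 cpm in sgN6AMT1. The conditions lay apart, with a log2 fold change of 0.59 (SE 0.26, 95% interval 0.04 to 1.14, edgeR adjusted p = 0.162), from 17 to 28 counts in the 4 shallower libraries. SDF2L1 and HYOU1, both also induced in ER stress, had 0.26 and 0.09 with overlap. With the GC and length trend removed from each library, they had 0.06 and 0.02. The SDF2L1 value of sgN6AMT1 replicate 2, at 198 cpm, stood above the other libraries at 119.5 to 129 cpm.

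Levels of the members differed widely when divided by transcript length. In sgCtrl, HSPA8 and HSP90AB1 reached 1890 and 1047 cpm per kb, and CALR (381) and HSP90B1 (326) led the ER group, whereas BAG3 stood at 13.8, HERPUD1 at 8.19 and DNAJB9 at 5.88. In sgN6AMT1 the same genes stood at 2015, 947, 379, 255, 9.14, 12.0 and 5.20 cpm per kb. Several transcripts share sequence with pseudogenes or readthrough genes of the annotation, among them DNAJB11 (24.9% of its 60-base windows), DNAJB6 (17.8%), PDIA3 (15.4%), HSP90AB1 (13.0%) and HSP90AA1 (12.3%), and their counts are uncertain to that extent.

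Other genes of the same network were taken from a list made by role. Of 39 other cytosolic chaperone genes tested, 4 were called lower and none higher. Among all genes tested 9.85% were called, 4.76% lower and 5.09% higher. The 39 genes had 14 positive and 25 negative log2 fold changes and a median of -0.13. Without the filter on low counts 7 were called lower and 2 higher, where 8.66% of all genes were called. The 2 higher genes were HSPA6 and DNAJB2, a neuronal J-domain protein. DNAJB2 received 0 to 2 counts in sgCtrl and 11, 57 and 36 in sgN6AMT1 replicates 1 to 3, of which replicates 2 and 3 are the deeper. Normalized, these were 0 to 2.36 cpm and 9.26 to 11.6 cpm, so that its sgCtrl values lie near 0. FKBP5, an HSP90-binding immunophilin and a glucocorticoid-induced gene, fell from 199 ± 53.8 to 67.0 ± 31.1 cpm (SD, n = 3 each; log2 fold change -1.61, edgeR adjusted p = 0.00238). Its sgN6AMT1 values of 86.4, 83.6 and 31.1 cpm all lay below the sgCtrl values of 232, 227 and 137 cpm. HSPB11, an intraflagellar transport protein despite its name, DNAJC21, a J-domain protein of ribosome maturation, and PDCL3, a phosducin-like co-factor of CCT, had log2 fold changes of -0.80, -0.67 and -0.94 (edgeR adjusted p = 0.0088, 0.0236 and 0.0418). Of 17 alternatives, FKBP5 was called in 17, HSPB11 in 16, DNAJC21 in 13 and PDCL3 in 9. DNAJC21 was lost without sgCtrl replicate 1 or 2 (edgeR adjusted p = 0.114 and 0.122), and PDCL3 without any single library other than sgN6AMT1 replicate 1 (0.0907 to 0.128).

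Of 33 other ER genes tested, 2 were called higher and 1 lower, where 5.09% of all genes were called higher and 4.76% lower. The 33 genes had 20 positive and 13 negative log2 fold changes and a median of 0.11. GANAB, the catalytic subunit of glucosidase II, which trims glycans for CALR and CANX, rose from 230 ± 10.6 to 321 ± 12.9 cpm (SD, n = 3 each; log2 fold change 0.48, edgeR adjusted p = 0.0377). EDEM2, which acts in the degradation of misfolded glycoproteins, rose with a log2 fold change of 0.85 (edgeR adjusted p = 0.0446), with values of 22.8 to 35.4 cpm in sgCtrl and 42.2 to 59.9 cpm in sgN6AMT1. SEC63, a J-domain protein that recruits BiP to the translocon, fell from 83.9 ± 16.6 to 40.3 ± 20.7 cpm (SD, n = 3 each; log2 fold change -1.17, edgeR adjusted p = 0.0217). Its values of 60.1, 42.2 and 18.8 cpm in sgN6AMT1 replicates 1 to 3 all lay below the sgCtrl range of 71.2 to 103 cpm, with replicate 3 again the lowest. The calls of GANAB and EDEM2 were each kept in 9 of 17 alternatives and that of SEC63 in 15. GANAB was lost with any single library left out (edgeR adjusted p = 0.0584 to 0.126), EDEM2 without replicate 1 or 2 of sgCtrl or replicate 2 or 3 of sgN6AMT1 (0.0691 to 0.185), and SEC63 without sgCtrl replicate 2 (0.139).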

How the data were processed

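RNA-Seq of K562 cells was analysed from 6 libraries, 3 sgCtrl and 3 sgN6AMT1, grouped by their labels. The authors trimmed reads with cutadapt, mapped them with HISAT2 to GRCh38 and overlapped them with the release 84 annotation. The deposited values are raw counts per gene and library, not normalized. The counting tool, the use of strand and the treatment of reads with several positions are not given in the sources used here. The paper's own test was DESeq2.

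In edgeR 4.0.16 (R 4.3.3), filterByExpr left 8324 genes, TMM factors set the scale, and a quasi-likelihood model (glmQLFit, glmQLFTest) compared the conditions without covariates. The Benjamini-Hochberg method adjusted p across all of them (threshold 0.05). Standard errors are the log2 fold change divided by the root of F, and intervals are at 95%. The fit was checked on simulated counts with the same spread for every gene and no GC trend. That check does not cover such features of the real libraries. Totals were 742470 to 5526904 counts per library, at which 3 counts correspond to 0.543 to 4.04 cpm. Per-library log2 values carry a prior count of 2. Lengths, GC content and 60-base windows come from the canonical transcripts of GENCODE version 44, and promoter windows from RefSeq (GRCh38.p14).

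The members, the lists and the tests were chosen with earlier results of these data known. Values in every library are given for members past the threshold, for the highest and lowest log2 fold change and the highest mean level in each group, and for HSF1, XBP1, HSPA1A, HSPA5 and BAG3. HSP90AA1, HSP90AB1, HSP90B1, VBP1, HSPA6 and DNAJB2 were added after their values were seen. The labels give the molecule as polyA RNA but the library kit as total RNA with rRNA depletion, as does the paper. Alternatives were DESeq2 1.42.0, RLE or total-count scaling, no filter, at least 10 counts in every library, a replicate block, TMM factors from nuclear genes only, a GC content and length correction with and without that block, thinning of sgN6AMT1 replicates 2 and 3 to 866524 counts, and each library left out. Leaving out both of these libraries was added after seeing the data. Transductions were separate, so that p-values measure the spread between them.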

Additional observations from a re-analysis of the deposited data

How the results depend on the processing

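Of 747 log2 fold changes of the members recomputed under 17 alternatives, 683 kept their direction and their side of the threshold, 15 passed only in an alternative, 1 call (HSPA1A) was lost, and 48 changed sign, in 18 genes; none of these 48 was over 0.208 in size (smallest edgeR or DESeq2 adjusted p = 0.668). The number of members called was 1 as reported, 2 without a filter on low counts (8.66% of all genes called), 4 with the replicate block (14.4%), 10 with the GC content and length correction and the block together (16.9%), 0 without sgN6AMT1 replicates 2 and 3 (1.38%, 1 sgN6AMT1 library left), and 1 to 2 with single libraries left out. The cause of these differences was not tested. The block added HSP90AA1 (-0.45), PFDN4 (-0.72) and HSPA5 (-0.51), and the correction with the block added HSPA14, CCT4, HSP90AA1, DNAJA1, CCT8, PFDN6, HSPA5, HSP90B1 and DNAJB11. Whether the replicate numbers pair the libraries is not given in the sources used here. Deviations of same-numbered libraries from the mean of their condition correlated at -0.000522, 0.0827 and 0.190. Only replicate 3 of sgCtrl correlated best with its own number. With 3 libraries per condition these values cannot decide whether the libraries are paired. Of the other cytosolic genes, 4 were called as reported (9.85% of all genes called) and 9 without a filter (2 of them higher, 8.66%). There were 8 with the block (14.4%) and 10 with the correction and the block (16.9%). With single libraries left out, there were 2 without sgCtrl replicate 1 or 2 (3.5 and 2.54%) to 7 without sgN6AMT1 replicate 1 (11.2%). Of the other ER genes, 3 were called as reported (9.85% of all genes called) and 5 with the correction and the block (16.9%). There were 2 with DESeq2 (6.7%) or the correction alone (11.1%), and 1 (lower) with thinning (7.09%). With single libraries left out, there were 0 to 3 (2.54 to 11.2%). Medians moved to -0.19 for the cytosolic genes with the GC content and length correction, with or without the block, to -0.015 without sgN6AMT1 replicates 2 and 3, and to 0.019 for the ER group with a minimum of 10 counts in every library, where DNAJB9 is not tested. With single libraries left out, medians ranged from -0.20 to -0.0065 (cytosolic), -0.42 to -0.013 (prefoldin), -0.14 to -0.011 (ER), -0.056 to 0.14 (CCT) and -0.14 to -0.010 (all members). Signs changed without sgN6AMT1 replicates 2 and 3 for DNAJB6 (0.026), AHSA1 (0.21), CCT3 (-0.022), CCT7 (-0.0053), PFDN5 (-0.095), CALR (0.024), PDIA6 (-0.12), DNAJB9 (0.17), DNAJC3 (0.19) and HYOU1 (-0.13), and with these libraries thinned for AHSA1 (0.045) and CALR (0.013). With the GC content and length correction they changed for CCT3 (-0.054), CCT7 (-0.079), PFDN5 (-0.047) and DNAJC3 (0.0094), with the block added for the same genes (-0.050, -0.075, -0.049 and 0.015), and with the minimum of 10 counts for CALR (0.019). With single libraries left out, the range crossed 0 for HSF1 (-0.090 to 0.59), HSPA8 (-0.0065 to 0.17), HSPB1 (-0.35 to 0.051), DNAJB6 (-0.20 to 0.0046), STIP1 (-0.19 to 0.023), AHSA1 (-0.15 to 0.072), TCP1 (-0.078 to 0.010), CCT2 (-0.078 to 0.13), CCT3 (-0.034 to 0.17), CCT7 (-0.039 to 0.14), PFDN1 (-0.36 to 0.019), PFDN5 (-0.074 to 0.23), CALR (-0.060 to 0.020), PDIA6 (-0.031 to 0.093), DNAJB9 (-0.50 to 0.057), SDF2L1 (-0.031 to 0.42) and HYOU1 (-0.058 to 0.18). Summing HSPA1A and HSPA1B was planned and not run, since HSPA1B was not analysed here.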
